A study of Mus musculus with 11 samples.

Results

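The genes described here are the Serpina1 copies (Serpina1a, Serpina1b, Serpina1c, Serpina1d and Serpina1e), the Serpina3 genes Serpina3k, Serpina3m, Serpina3n and Serpina3c, and Serpina6, chosen by name and not by any measured value. All 10 were among the 31053 genes listed for every section. They were measured by spatial transcriptomics (10x Genomics spatial 3′ gene expression, in which each array spot captures the polyadenylated RNA of the small region of tissue above it) in 11 sections of mouse liver. The 0 h group held 3 sections of uninjured liver (replicates 2, 3 and 4), and sections after injury were taken at 24 h (A and B), 36 h (A and B) and 48 h (A, B, C and D). Injury was acetaminophen (APAP) overdose, the model in which hepatocytes around the central vein die and the liver then regenerates. The study used C57BL/6JCrl mice, male unless stated otherwise, which were fasted and then given APAP in PBS by intraperitoneal injection; by the study's methods all were young adults within a range of a few weeks, and the labels give no further genotype. The study's methods give 1 mouse liver per time point, and the labels tie no section to a mouse. The sections of a time point are therefore taken to be repeats within a liver. On that reading time and mouse cannot be told apart, and every p-value below measures only the spread between sections.

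Serpins are serine protease inhibitors that act as suicide substrates: the target protease cuts an exposed loop near the carboxyl end of the serpin and is trapped. The Serpina1 genes are the mouse counterparts of the human gene for alpha-1-antitrypsin, a plasma protein made mainly by hepatocytes. The human protein inhibits neutrophil elastase, and which proteases each mouse copy inhibits was not tested here. Humans carry 1 such gene, whereas mice carry several near-identical copies. The Serpina3 genes are the mouse relatives of human alpha-1-antichymotrypsin, expanded to many copies in rodents, and Serpina3n is a known acute phase gene. Serpina6 encodes corticosteroid-binding globulin, the plasma carrier of glucocorticoids.

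All 10 genes lie on mouse chromosome 12 of GRCm38 (GENCODE annotation), each with 5 exons in the transcript used for its coding sequence. Serpina6 (ENSMUSG00000060807) is at chr12:103646630-103657212 on the minus strand, followed on that strand by Serpina1b, Serpina1d, Serpina1a, Serpina1c and Serpina1e between positions 103728156 and 103958975, and by Serpina3c at chr12:104146382-104153870. Serpina3k, Serpina3m and Serpina3n lie on the plus strand between positions 104338486 and 104414329. The gene model of Serpina1b (chr12:103728156-103830373) spans that of Serpina1d (chr12:103763594-103773592), and the model of Serpina3m starts at the same base as that of Serpina3k, so the assignment of reads between these neighbours is uncertain.

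The coding sequences of the Serpina1 copies were all 1239 bases long, and pairs of copies were identical at between 96.3% and 98.5% of bases. Differences were not spread evenly. Of the 86 positions at which the copies differed, 18 fell in coding bases 1102 to 1161, against a median of 4 in stretches of 60 bases. That stretch is shown because it is where the copies are most easily told apart; it lies near the end of the coding sequence, as does the protease-trapping loop of serpins. Capitals mark positions at which any of the 5 copies differ.
Serpina1a: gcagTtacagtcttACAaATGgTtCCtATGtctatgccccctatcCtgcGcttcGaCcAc
Serpina1b: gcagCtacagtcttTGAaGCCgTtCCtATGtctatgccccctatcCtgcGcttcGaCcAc
Serpina1c: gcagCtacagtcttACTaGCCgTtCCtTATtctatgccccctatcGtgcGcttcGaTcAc
Serpina1d: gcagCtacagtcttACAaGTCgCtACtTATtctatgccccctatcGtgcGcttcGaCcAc
Serpina1e: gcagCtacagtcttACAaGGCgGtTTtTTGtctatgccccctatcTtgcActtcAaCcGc

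The Serpina3 coding sequences were less alike, at 83.5% identity between Serpina3k and Serpina3n and 91.8% between Serpina3k and Serpina3m, and the Serpina1 and Serpina3 groups shared between 57.8% and 60.9% of bases. As the assay reads the 3′ end, the last 500 bases of the transcript used for each gene's coding sequence were cut into 411 windows of 90 bases. Other 3′ ends of a gene were not examined. All windows of Serpina1e, Serpina3k, Serpina3m, Serpina3n, Serpina3c and Serpina6 occurred in no other gene. For Serpina1a this held for 78.1% of windows, for Serpina1c for 84.7%, for Serpina1d for 92.5% and for Serpina1b for 96.4%; the remainder also occurred in another Serpina1 copy or in Gm8893. By this measure, values of Serpina1a to Serpina1d are less certain per copy than those of the other genes. It does not remove the uncertainty from the gene models of Serpina3k and Serpina3m, which start at the same base.

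Depth was between 31292663 and 67045372 unique molecular identifiers (UMIs) per section over 1490 to 3466 passing spots. Levels are given as counts per 1000000 UMIs (CPM) scaled by TMM, and because UMIs count molecules at the 3′ end they are not divided by length. The hepatocyte markers Alb, Ttr, Apoa1, Trf and Hnf4a were present in every section, with a summed level of 114300 to 119400 CPM at 0 h and 77230 to 102900 CPM after injury. Neutrophil markers summed to 3.17 to 9.06 CPM at 0 h and 25.4 to 142 CPM after injury. Mononuclear phagocyte markers summed to 409.1 to 434.5 CPM at 0 h and 721.8 to 1327 CPM at 48 h, and mesenchymal markers to 249.7 to 286.3 CPM and 673.7 to 1469 CPM. The mitochondrial share of UMIs was 4.1% to 6% at 0 h and 1.8% to 4.53% after injury. The part of these shifts in the changes below was not tested. The 10 genes together took between 3.9% and 6.01% of all UMIs of a section. In summed sections, fewer cells of a type and less RNA per cell cannot be told apart.

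In uninjured liver the genes fell into a group of very abundant transcripts and a group of far rarer ones. Serpina1e, with a mean of 14730 CPM, Serpina3k with 14330 CPM and Serpina1c with 12533 CPM had overlapping ranges and were followed, without overlap between neighbours, by Serpina1b (7846 CPM), Serpina1a (6751 CPM) and Serpina1d (5332 CPM). Serpina3m (236 CPM) and Serpina3n (231 CPM) overlapped, Serpina6 followed at 101 CPM, and Serpina3c was at 0.132 CPM. By 48 h Serpina1c, Serpina1e and Serpina3k still overlapped at the top, with means of 7965, 7550 and 7458 CPM, and Serpina3m (488 CPM) and Serpina3n (410 CPM) still overlapped.

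**Figure D1:**
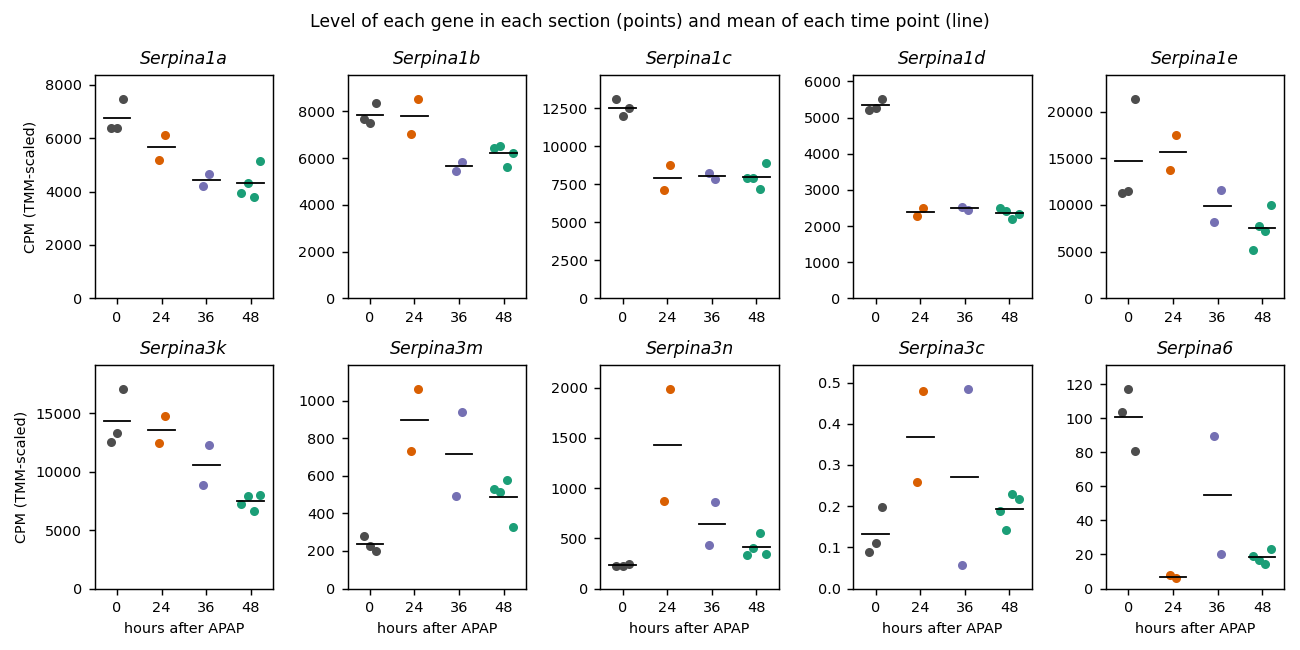
Level of each gene (CPM scaled by TMM, linear axis from 0, a scale of its own in each panel) against hours after APAP; points are sections and lines are means of a time point. Serpina3m and Serpina3n are higher in every injured section than in the 0 h sections, Serpina1d is lower in every injured section, and Serpina6 is lowest at 24 h with 36 h A standing near the 0 h level.

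The comparison of each time point with 0 h asks how the transcripts changed after injury. At 24 h, 2 of the 10 genes were called higher (Serpina3n and Serpina3m) and 3 lower (Serpina6, Serpina1d and Serpina1c) at an adjusted p below 0.05 in edgeR's quasi-likelihood test; over all 14821 genes tested, 23.1% were called higher and 18.6% lower. At 36 h the same test called 2 higher and 4 lower, beside 16.8% and 12.4% of all genes, and at 48 h it called 1 higher and 7 lower, beside 23.3% and 20.9% of all genes. The median log2 fold change of the 10 genes was -0.04 at 24 h, -0.53 at 36 h and -0.65 at 48 h, where that of all genes was 0.05, 0.05 and 0.01. The 3 comparisons share the 0 h sections. Scaling mattered here: with total-count scaling in place of TMM, the median of all genes moved to 0.37 at 24 h, 0.49 at 36 h and 0.54 at 48 h, and several calls of the abundant genes, including some larger than this shift, were lost with it, as given for each gene below.

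Serpina3n, which encodes an inducible inhibitor of leukocyte proteases, had the largest increase of the 10 at 24 h. It was at 225.1, 224.2 and 245.1 CPM in the 0 h sections, 874.1 and 1991 CPM at 24 h, 431.4 and 861.2 CPM at 36 h, and 334.4, 402.1, 554.7 and 349 CPM at 48 h. No injured section overlapped the 0 h range, and 24 h B stood highest. The 24 h log2 fold change was 2.63 (SE 0.365, edgeR adjusted p = 0.000426). That of 36 h was 1.48 (SE 0.359, adjusted p = 0.0133). At 48 h it was 0.83 (SE 0.31), which missed the threshold by edgeR (adjusted p = 0.0524) and passed it by DESeq2 (adjusted p = 0.0145) and with total-count scaling (log2 fold change 1.36, edgeR adjusted p = 0.00319). Without 36 h B the 36 h value was 0.90 (edgeR adjusted p = 0.151). From 24 h to 48 h Serpina3n fell by 1.81 on the log2 scale (SE 0.331, edgeR adjusted p = 0.00301).

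Serpina3m followed a similar course from a similar starting level. The 0 h sections held 278, 229 and 202.5 CPM, the 24 h sections 731 and 1064 CPM, the 36 h sections 491.3 and 941.5 CPM, and the 48 h sections 528.3, 512.8, 579.1 and 329.8 CPM. All 8 injured sections were above all 3 uninjured ones. Against 0 h, the 24, 36 and 48 h sections gave log2 fold changes of 1.92 (SE 0.299), 1.60 (SE 0.298) and 1.04 (SE 0.26), with edgeR adjusted p-values of 0.000721, 0.00397 and 0.00836.

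Serpina3k, the abundant Serpina3 gene, did not share this increase. Its levels were 12550, 13340 and 17100 CPM at 0 h, 12440 and 14740 CPM at 24 h, 8893 and 12300 CPM at 36 h, and 7254, 7895, 6642 and 8040 CPM at 48 h. The 24 h sections lay within or just below the 0 h range and the 48 h sections lay wholly below it. The log2 fold change was -0.08 (SE 0.179, edgeR adjusted p = 0.762) at 24 h, where total-count scaling turned it to 0.25 (adjusted p = 0.223), and -0.94 (SE 0.149, adjusted p = 0.000622) at 48 h. At 36 h it was -0.44 (SE 0.181, edgeR adjusted p = 0.0922), and without 36 h B it was -0.69 (adjusted p = 0.0367).

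The unequal course of the Serpina3 genes was tested as ratios of UMIs within a section, which do not depend on library scaling. The log2 ratio of Serpina3n to Serpina3k was -5.94 ± 0.166 (SD, n = 3) at 0 h and -3.97 ± 0.554 (SD, n = 8) after injury, a difference of 1.97 (exact permutation test, two-sided, p = 0.0121, adjusted over 5 ratios 0.0303). The ratio of Serpina3m to Serpina3k differed by 1.97 as well (exact permutation p = 0.0121, adjusted 0.0303). For both, the ranges did not overlap and p = 0.0121 is the smallest the design allows; with any 0 h section left out the smallest is 0.0444, and the exact permutation test then gave an adjusted p of 0.111. Serpina3k took between 96.1% and 97.4% of the UMIs of the 4 Serpina3 genes at 0 h and 82.8% and 88.6% at 24 h. Serpina3c contributed 2 to 17 UMIs per section throughout, with log2 fold changes of 1.47 (SE 0.681), 1.07 (SE 0.712) and 0.60 (SE 0.594) that did not pass the edgeR test (adjusted p = 0.105, 0.274 and 0.433). At these counts its calls turned on single sections: without 36 h A it was called higher at 24 h and at 36 h (edgeR adjusted p = 0.0313 and 0.0295), and without 36 h B at 24 h (0.0373), and with total-count scaling it was also called at 24 h (1.79, adjusted p = 0.0431).

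The alpha-1-antitrypsin copies did not change alike. Serpina1d had the steadiest decrease, from 5213, 5259 and 5525 CPM at 0 h to 2290 and 2510 CPM at 24 h, 2516 and 2455 CPM at 36 h, and 2498, 2406, 2204 and 2342 CPM at 48 h. Every injured section lay below every 0 h section. Its log2 fold change was -1.15 (SE 0.11), -1.10 (SE 0.11) and -1.17 (SE 0.088) at 24, 36 and 48 h (edgeR adjusted p = 5.49e-05, 0.000255 and 1.89e-05), and it was called lower at all 3 times with total-count scaling too.

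Serpina1c moved the same way by less, from 13130, 11990 and 12480 CPM at 0 h to 7091 and 8738 CPM at 24 h, 8255 and 7832 CPM at 36 h, and 7883, 7928, 7176 and 8872 CPM at 48 h. Here too no injured section reached the 0 h range. The log2 fold change was -0.66 (SE 0.132, edgeR adjusted p = 0.00261), -0.64 (SE 0.132, adjusted p = 0.00604) and -0.65 (SE 0.108, adjusted p = 0.000804). With total-count scaling the 36 h and 48 h values were -0.20 (adjusted p = 0.2) and -0.13 (adjusted p = 0.3).

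Serpina1a was at 6380, 6388 and 7485 CPM at 0 h, 5200 and 6110 CPM at 24 h, 4191 and 4670 CPM at 36 h, and 3957, 4334, 3794 and 5138 CPM at 48 h. Serpina1b was at 7674, 7506 and 8357 CPM, then 7015 and 8545 CPM, then 5452 and 5840 CPM, then 6450, 6522, 5629 and 6230 CPM. All 6 sections of 36 h and 48 h lay below the 0 h range for both copies, whereas Serpina1b at 24 h straddled it. At 24 h neither passed the edgeR test, with log2 fold changes of -0.26 (SE 0.154, adjusted p = 0.207) and -0.01 (SE 0.124, adjusted p = 0.949). Both were called lower at 36 h, by 0.61 and 0.48 (adjusted p = 0.0159 and 0.0182), and at 48 h, where Serpina1a fell by 0.65 (adjusted p = 0.00219) and Serpina1b fell by 0.34 (adjusted p = 0.0222). The 36 h calls of both were lost without 36 h A (edgeR adjusted p = 0.0543 and 0.0528), and for Serpina1b also without 0 h replicate 4 (0.0504), as was its 48 h call (0.077 without 0 h replicate 4, 0.0599 without 48 h C). None of these 4 calls held with total-count scaling, under which the direction of Serpina1b also turned, to 0.31 at 24 h (edgeR adjusted p = 0.0401) and 0.19 at 48 h (0.105), as did that of Serpina1a at 24 h (0.07, adjusted p = 0.707).

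Serpina1e was the most variable copy. Its 0 h sections held 11250, 11540 and 21400 CPM, those of 24 h 13760 and 17500 CPM, those of 36 h 8191 and 11550 CPM, and those of 48 h 5198, 7785, 7208 and 10010 CPM. Replicate 4 stood far above the other uninjured sections, and the 24 h sections lay inside the 0 h range. Neither the 24 h log2 fold change of 0.09 (SE 0.323, edgeR adjusted p = 0.856) nor the 36 h one of -0.58 (SE 0.329, adjusted p = 0.207) passed the test. The 48 h one of -0.96 (SE 0.269, adjusted p = 0.0149) did, but was -0.60 (adjusted p = 0.073) without 0 h replicate 4 and -0.43 (adjusted p = 0.162) with total-count scaling. From 24 h to 48 h it fell by 1.05 (SE 0.298, edgeR adjusted p = 0.021), a call lost without 24 h A (adjusted p = 0.0557) or 24 h B (0.141). The log2 ratio of Serpina1e to the sum of the other copies was -1.21 ± 0.474 (SD, n = 3) at 0 h and -1.17 ± 0.474 (SD, n = 8) after injury (exact permutation p = 0.836). As a share of Serpina1 UMIs, Serpina1e was lowest in 48 h A (20%) and highest in 24 h B (40.3%), while Serpina1a stayed between 13.5% and 15.8%.

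As a whole, the Serpina1 copies took between 2.97% and 4.33% of the UMIs of a section. The log2 ratio of their sum to Alb, which encodes albumin, was -0.51 ± 0.217 (SD, n = 3) at 0 h and -0.70 ± 0.315 (SD, n = 8) after injury, a difference of -0.20 that did not pass the exact permutation test (p = 0.352, adjusted 0.439).

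Serpina6 had the largest decrease of the 10 genes at 24 h. It was at 103.8, 117.4 and 81.03 CPM in the 0 h sections, 7.85 and 6.29 CPM at 24 h, 89.73 and 20.26 CPM at 36 h, and 19.15, 16.55, 14.48 and 23.13 CPM at 48 h. The 24 h sections were lowest, the 48 h sections lay between 24 h and 0 h, and 36 h A alone reached the 0 h range. It was called lower at 24 h, with a log2 fold change of -3.83 (SE 0.565, edgeR adjusted p = 0.000665), and at 48 h, with -2.46 (SE 0.4, adjusted p = 0.000971). The 36 h value of -0.87 (SE 0.482) missed the threshold (edgeR adjusted p = 0.196), and without 36 h A it was -2.32 (edgeR adjusted p = 0.000797). Against Alb, the log2 ratio was -9.38 ± 0.28 (SD, n = 3) at 0 h and -11.49 ± 1.16 (SD, n = 8) after injury (exact permutation p = 0.0364, adjusted 0.0606).

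**Figure D2:**
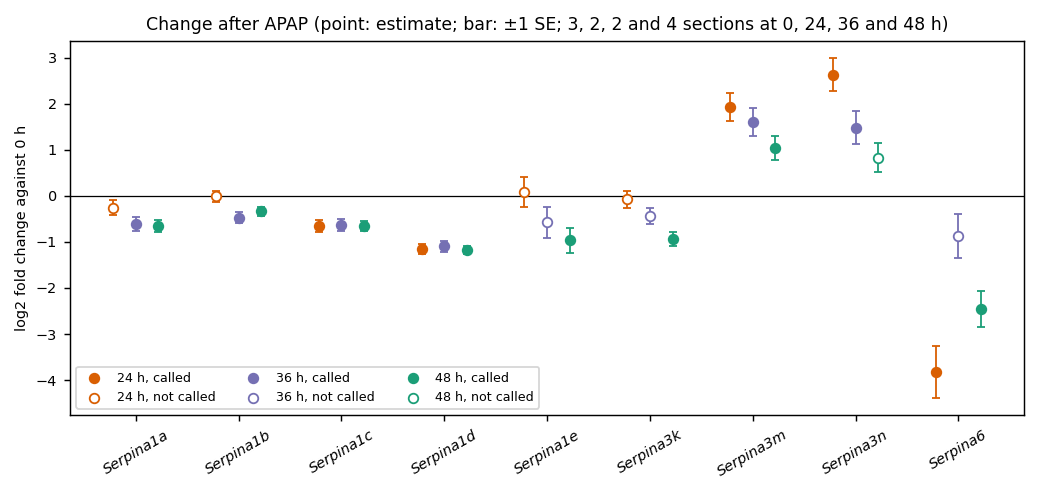
Log2 fold change of each tested gene except the near-absent Serpina3c against 0 h at 24, 36 and 48 h (points; bars are 1 SE either way; filled points passed edgeR's test at an adjusted p below 0.05, TMM scaling). Serpina3n and Serpina3m lie above 0 at all 3 times, Serpina1c and Serpina1d below 0 at all 3, and Serpina6 reaches -3.83 at 24 h.

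Comparisons between injured time points asked whether these changes persisted. From 24 h to 36 h, 1 of the 10 genes was called higher (Serpina6, log2 fold change 2.96, SE 0.564, edgeR adjusted p = 0.0118) and 1 lower (Serpina1b, -0.46, SE 0.137, adjusted p = 0.0441), beside 7.04% and 8.58% of all genes. The Serpina6 call rested on few sections: its adjusted p was 0.07 without 24 h A, 0.0675 without 24 h B, and 0.0808 with the section letter as a replicate block (log2 fold change 2.73, edgeR). Its size turned on the 36 h sections, at 1.51 (edgeR adjusted p = 0.00749) without 36 h A and 3.70 (adjusted p = 0.000544) without 36 h B. The call of Serpina1b was lost when any single section other than 48 h C was left out (edgeR adjusted p = 0.0563 to 0.229). From 24 h to 48 h, 4 genes were called lower, Serpina3n, Serpina1e, Serpina3k (-0.87, SE 0.165, edgeR adjusted p = 0.00324) and Serpina3m (-0.88, SE 0.279, adjusted p = 0.0331; 0.0548 to 0.258 without 0 h 3, 24 h B, 48 h B or 48 h D), and 0 higher, beside 17.8% lower and 16.2% higher among all genes. With the replicate block 2 of these 4 calls were lost, Serpina3k (adjusted p = 0.0532) and Serpina3m (adjusted p = 0.131). The Serpina3m call was also lost with total-count scaling (-0.67, edgeR adjusted p = 0.0781) and with no low-count filter (adjusted p = 0.0534). From 36 h to 48 h the edgeR test called 0 of the 10, where 1.62% of all genes were higher and 1.43% lower; at an unadjusted p below 0.05 there were 2, Serpina6 (log2 fold change -1.59) and Serpina3k (-0.51), and DESeq2 called 1, Serpina6. Of all genes, 20.5% had an unadjusted p below 0.05 there. The Serpina6 value rested on 36 h A, without which it was -0.14 (edgeR adjusted p = 0.804).

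Across spots the abundant genes were near ubiquitous. With every spot thinned to 2000 UMIs, Serpina1a, Serpina1b, Serpina1c, Serpina1e and Serpina3k were found in over 99% of spots of every section. Serpina3n was found in 27.3% to 30.4% of spots at 0 h, 82% and 96.5% at 24 h, 60.5% and 84.5% at 36 h, and 52.8% to 69.1% at 48 h; unthinned, the 0 h share was 87% to 94.8%. Serpina3m went from 26.7% to 34.2% at 0 h to 75.7% and 86.8% at 24 h. Serpina6 was found in 10.7% to 16.4% of spots at 0 h, 1.03% and 0.971% at 24 h, 17.7% and 3.74% at 36 h, and 3.36% to 4.97% at 48 h. Serpina3c was found in at most 2 thinned spots of a section. Array positions outside the tissue, at a median of 952 to 10290 UMIs, also held these transcripts, for most genes at a share of their UMIs near that under tissue. For Serpina3n it was 143 to 155 CPM at 0 h and 335 to 1228 CPM after injury, by total count. Under tissue, by the same scaling, Serpina3n was at 178 to 192 CPM and 382 to 1957 CPM. It was lower off tissue in every section except 36 h B, and the gap was widest in 24 h B (1228 against 1957 CPM). A share of spots with a UMI thus includes RNA that spread over the array, and its part in these shares was not tested.

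**Figure D3:**
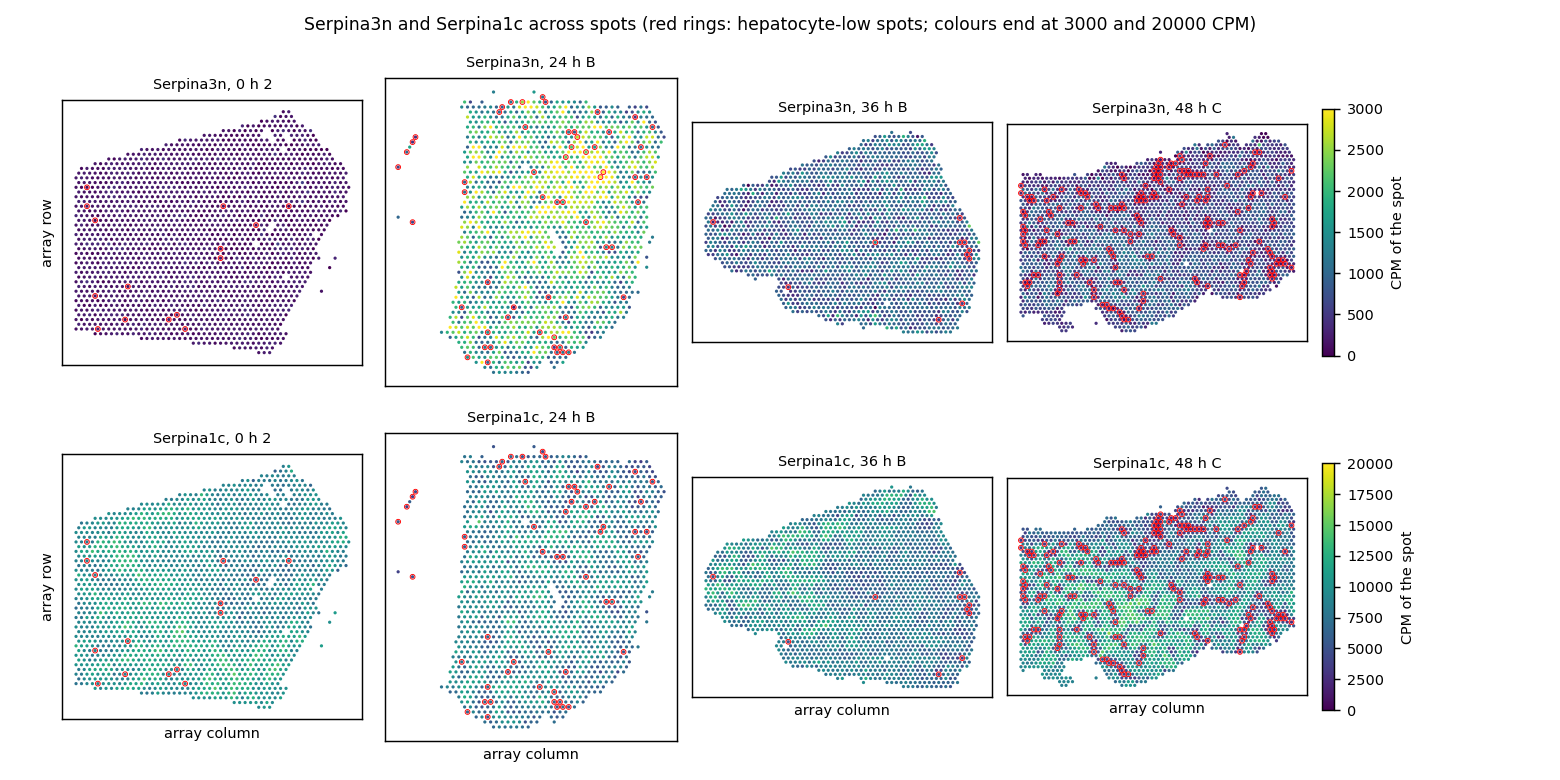
CPM (by the spot's total) of Serpina3n, upper row, and Serpina1c, lower row, at each passing spot of sections 0 h 2, 24 h B, 36 h B and 48 h C; axes are array column and row, red rings mark hepatocyte-low spots, and each row has its own colour scale. Serpina3n is low throughout 0 h 2 and high over most of 24 h B, and in 48 h C both genes are lower where hepatocyte-low spots cluster.

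Position in the lobule was examined by ranking the spots of each section on the study's portal list of 12 genes, none of which is among the 10, and comparing the highest with the lowest 1 in 3 of spots, with the section as a block. The list is not free of related genes, as it holds Serpina12, another clade A serpin, and Hpx, which is also an acute phase gene. Hpx was among the 5 genes most like each Serpina1 copy over spots at 24 h (mean r = 0.25 to 0.56). In uninjured liver, 6 of the 9 genes with enough UMIs (all 5 Serpina1 copies and Serpina3n) were higher in portal-rich spots and 1, Serpina6, was lower, where 5.15% of 14001 genes were higher and 5.34% lower by edgeR. The Serpina1 log2 ratios were small, from 0.23 (SE 0.058) for Serpina1a to 0.32 (SE 0.062) for Serpina1b, and Serpina3n had 0.20 (SE 0.061, edgeR adjusted p = 0.0412; with total-count scaling 0.15, adjusted p = 0.0725). For Serpina6 the log2 ratio was -0.64, -0.56 and -0.66 in the 3 sections (edgeR -0.61, SE 0.069, adjusted p = 9.82e-06). It thus ran opposite to its chromosomal neighbours, while Serpina3k (0.15, adjusted p = 0.0903) and Serpina3m (-0.14, adjusted p = 0.177) did not pass the test. The 0 h count rested on few sections, with 3 genes called without replicate 2 and 4 without replicate 4.

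After injury, 9 of 9 were higher in portal-rich spots and 0 lower, beside 28.5% higher and 29.4% lower among all genes. The log2 ratio, averaged over the 3 injured times, ranged from 0.39 (SE 0.039) for Serpina3m to 0.97 (SE 0.04) for Serpina1c, and was above 0 in 8 of 8 injured sections for each gene. For Serpina6 it was 0.66 (SE 0.089, edgeR adjusted p = 7.05e-06), so that its sign turned: the 24 h sections gave 0.37 and 0.96, those of 36 h 0.59 and 0.67, and those of 48 h 0.65, 0.93, 1.23 and 0.50. The difference between injured and 0 h ratios was itself called higher for 9 of 9, beside 19.7% higher and 15.3% lower among all genes, with 1.27 (SE 0.112, edgeR adjusted p = 1.69e-07) for Serpina6 and 0.48 to 0.67 for the others. With total-count scaling the injured ratio of Serpina3m lost its call (0.08, edgeR adjusted p = 0.0591), while the difference kept a call for 9 of 9.

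Other genes moved along the same axis. Alb had log2 ratios of 0.56 to 0.58 at 0 h and 0.62 to 1.18 after injury. After injury 14 of 14 secreted liver proteins and 5 of 5 hepatocyte markers were higher in portal-rich spots, with Alb, Ttr, Apoa1 and Trf on both lists. In the same comparison 5 of 5 neutrophil, 4 of 4 mononuclear phagocyte and 6 of 7 mesenchymal markers were lower. The turn of Serpina6 was shared by genes of the study's central zonation list: 23 of 23 were lower in portal-rich spots at 0 h, 12 were higher and 4 lower after injury, and the difference was called higher for 22 of 23, with a median of 0.89. The study derived its mouse zonation lists from spatial transcriptomics, so the 0 h count follows in part from how the lists were made. The portal-poor spots included 1.48% to 21.1% hepatocyte-low spots in injured sections and 2.02% to 3.35% at 0 h. With the hepatocyte-low spots left out, the difference between injured and 0 h was still called for 9 of 9 genes, with 1.16 for Serpina6 and 0.43 to 0.61 for the others. That fit kept the spots touching hepatocyte-low ones, in which hepatocyte markers were also lower. Position in the lobule and the hepatocyte content of a spot therefore cannot be told apart on this axis after injury.

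**Figure D4:**
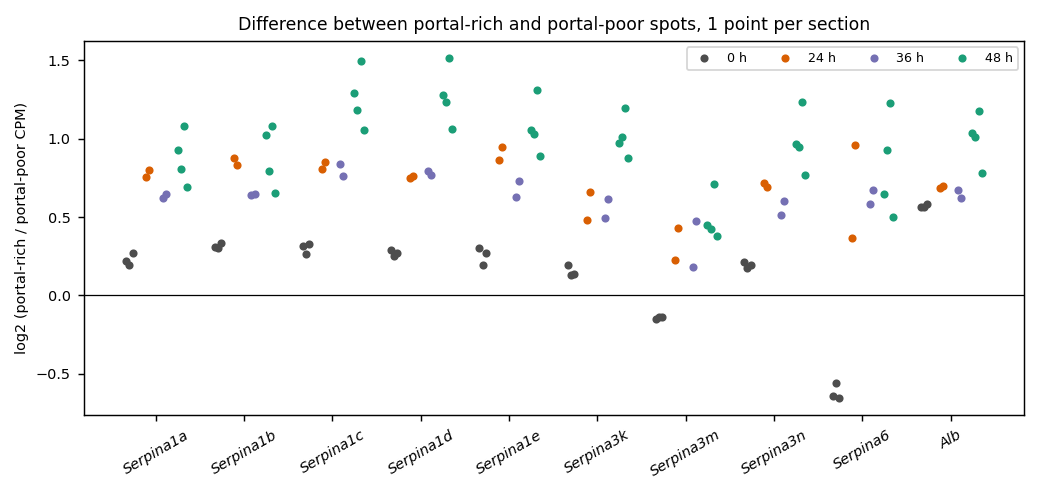
Log2 ratio of CPM in portal-rich to portal-poor spots for the 9 tested genes and Alb, 1 point per section, coloured by time point; 0 means equal levels. At 0 h Serpina6 lies between -0.66 and -0.56 and the Serpina1 copies between 0.19 and 0.34, and after injury all points lie above 0.

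Spots were also classed by distance from hepatocyte-low spots, those scoring lower on the 5 hepatocyte markers than the 1st percentile of uninjured spots. In injured sections, ring 1 spots (touching a hepatocyte-low spot) were compared with far spots (3 or more steps away). All 9 genes tested were called lower in ring 1 and 0 higher, beside 13% lower and 9.43% higher among 14164 genes by edgeR, with log2 ratios of -0.29 (SE 0.04) for Serpina3m to -0.63 (SE 0.045) for Serpina1c. The median of the 9 was -0.50. In the same spots 5 of 5 hepatocyte markers (median -0.40) and 14 of 14 secreted liver proteins (-0.42) were lower, while 3 of 5 neutrophil, 3 of 4 mononuclear phagocyte and 4 of 7 mesenchymal markers were higher. The part of these marker differences in the ring 1 values was not tested. Alb, Ttr, Apoa1 and Trf are on both the hepatocyte and the secreted list, and the hepatocyte markers also defined the hepatocyte-low spots that ring 1 touches. In the hepatocyte-low spots themselves all 9 were lower than in far spots and 0 higher, from -0.99 (SE 0.052) for Serpina3m to -1.47 (SE 0.134) for Serpina6, beside 20.8% lower and 14.3% higher among all genes. As these spots were chosen for few hepatocyte transcripts, a lower level of hepatocyte genes there follows in part from that choice; Alb, 1 of the 5, had ratios of -1.04 to -1.98. Mononuclear phagocyte markers were higher in hepatocyte-low spots for 4 of 4 genes, mesenchymal markers for 5 of 7, endothelial markers for 4 of 7 and neutrophil markers for 2 of 5. Of 4 cholangiocyte markers 1 was lower.

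The decrease was deeper at 48 h than at 24 h for most genes. Serpina1d in hepatocyte-low against far spots had -0.94 and -0.97 in the 24 h sections, -1.33 in 36 h A, and -1.92, -1.79, -2.10 and -1.83 in the 48 h sections. Serpina3n had -1.18 and -1.02, then -1.38, then -1.86, -1.81, -2.08 and -1.76. Alb, which was among the markers used to choose these spots, took the same course. It had -1.12 and -1.04, then -1.26, then -1.84, -1.75, -1.98 and -1.71. The 48 h sections lay below the earlier ones for Serpina1d, Serpina3n and Alb alike. Section 36 h B had 11 hepatocyte-low spots and gave no value. The difference between times was not tested, nor was the part in it of fewer hepatocyte transcripts. The Serpina1 copies, Serpina3k, Serpina3m and Serpina3n were also lower in ring 1 than in far spots of the 0 h sections. There Serpina1c had -0.41, -0.26 and -0.39, against -1.03 to -0.44 after injury. Serpina3n had -0.41, -0.22 and -0.22, against -0.67 to -0.26, and Serpina3m had -0.19, -0.08 and -0.03, against -0.38 to -0.13. Alb had -0.7, -0.544 and -0.723, against -0.705 to -0.421 after injury. In the 0 h sections Serpina6 was slightly higher in ring 1 than in far spots (0.21, 0.13 and 0.20), whereas after injury it was lower in all 8 sections (-0.83 to -0.23).

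**Figure D5:**
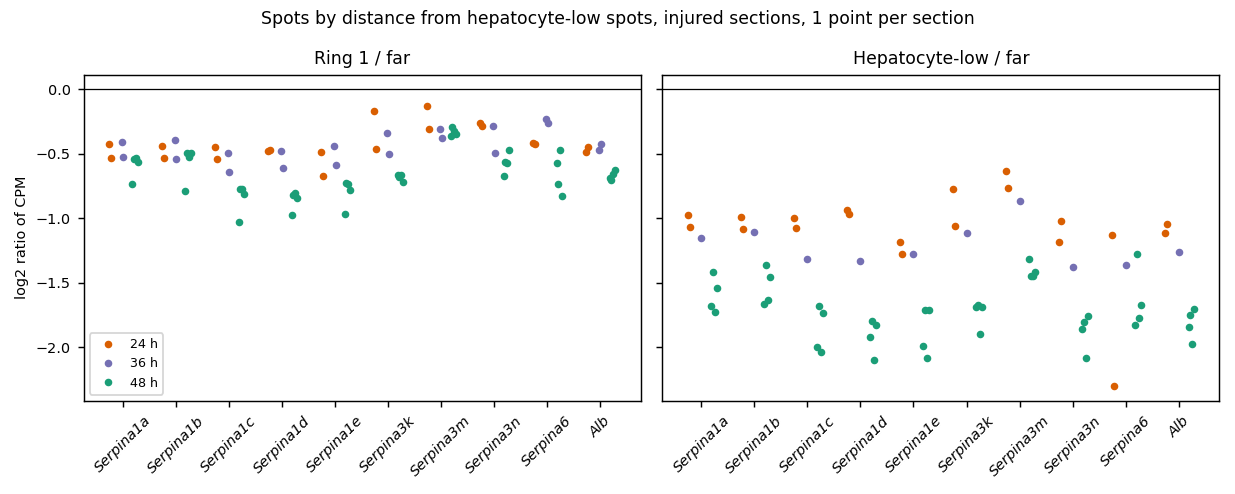
Log2 ratio of CPM in ring 1 spots (left) and hepatocyte-low spots (right) to far spots for the 9 tested genes and Alb, 1 point per injured section, coloured by time point; 36 h B had under 20 hepatocyte-low spots and is absent on the right. All points lie below 0, and those of 48 h are mostly the lowest.

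Within sections, the abundant genes varied together from spot to spot, and more so after injury. The mean Pearson correlation over spots of Serpina1c with Serpina3k was 0.26 in the 3 sections at 0 h, 0.38 at 24 h and 0.55 at 48 h, and that of Serpina1c with Serpina1e was 0.17, 0.50 and 0.53. Spots of a section share a library and neighbours share RNA, so these are descriptions. Among genes outside the 10, the one most like Serpina1c was Ahsg, which encodes fetuin-A, at 0 h (mean r = 0.36) and Hp, which encodes haptoglobin, at 24 h (0.50). For Serpina3n it was Ahsg at 0 h (0.07) and Hp at 24 h (0.25), and for Serpina6 at 0 h Mup11 (0.09), a gene of the central zonation list; no sparse gene had a mean correlation above 0.1 at 0 h. Serpina3m and Serpina3n, which rose together in sections, had mean correlations of 0.01 to 0.03 over spots. Their thinned counts averaged only 0.31 to 0.42 UMIs per spot at 0 h and 0.72 to 3.75 after injury. Counting error at such counts pulls a correlation towards 0, so these values cannot show whether the genes vary apart from spot to spot.

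Over the 11 sections, the genes most like Serpina3n in log2 CPM were Uck2 (r = 0.98), Cp, which encodes the acute phase protein ceruloplasmin (0.97), Angpt2 (0.96), Fgl1, which encodes a hepatocyte-secreted fibrinogen-like protein (0.96), and Rasip1 (0.96). For Serpina3m they were Uchl1 (0.98), Nrip3, Npy, Map3k6 and Wwtr1. For Serpina6 they included Zfp467 (0.99), Naa60, C2cd4d and Uox, which encodes urate oxidase (0.98). For Serpina1d they were Slc22a3 (0.99), Rdh7, Glo1, Ndufs4 and Chchd10. These are the highest of 14811 genes over 11 sections of 4 time points, and sections of a time point are taken to share a liver.

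The surrounding pathways were described with gene lists. Of 23 acute phase genes, the edgeR test put 20 higher and 1 lower at 24 h, beside 23.1% and 18.6% of all genes. At 36 h these counts were 12 and 3, beside 16.8% and 12.4%. By 48 h they were 7 and 3, beside 23.3% and 20.9%, and so were close to the shares over all genes. At 24 h the largest changes in the list were those of Lcn2, the iron-binding lipocalin (log2 fold change 7.81, SE 0.997), the metallothioneins Mt2 (6.50) and Mt1 (5.69), and Orm2, an orosomucoid (4.27). The list's median log2 fold change was 1.46, 0.97 and 0.48 at the 3 times, beside 0.05, 0.05 and 0.01 for all genes.

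The next list held 14 genes for IL-6 and STAT3 signalling, the pathway that drives acute phase transcription in hepatocytes. It also included the interleukin-1 receptor chains Il1r1 and Il1rap and the C/EBP factors Cebpa, Cebpb and Cebpd, so its counts are not of that pathway alone. Of the 14 genes, 6 were higher and 2 lower at 24 h, beside 23.1% and 18.6% of all genes. Among the receptors, Il1r1, which binds interleukin-1, rose by 2.20 (SE 0.431), whereas Lifr, which binds leukemia inhibitory factor, fell by 2.32 (SE 0.517) and Il1rap, the accessory chain of the interleukin-1 receptor, fell by 2.16 (SE 0.205). Socs3, the feedback inhibitor of the pathway, rose by 3.14 (SE 0.376). At 36 h 3 genes were higher and 2 lower, beside 16.8% and 12.4% of all genes, and at 48 h 3 and 3, beside 23.3% and 20.9%, so that these later counts were close to the shares over all genes.

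Of 10 genes of the glucocorticoid response, whose ligand Serpina6 protein carries, 1 was higher and 4 lower at 24 h. Fkbp5, a chaperone of the receptor and a classical target gene, rose by 2.68 (SE 0.675), and Tat, tyrosine aminotransferase (-2.81, SE 0.529), Tsc22d3 (-1.95, SE 0.251) and Hsd11b1, which regenerates active glucocorticoid (-1.60, SE 0.164), were lower. At 36 h 1 was higher and 2 lower, and at 48 h 1 and 4. The 1 of 10 genes that was higher is below the share over all genes at each time (23.1%, 16.8% and 23.3%). The 4 lower at 24 h and 48 h stand beside 18.6% and 20.9%, and the 2 lower at 36 h beside 12.4%.

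Other serpins moved in both directions. The counts that follow stand beside 23.1% of all genes higher and 18.6% lower at 24 h, and 23.3% and 20.9% at 48 h, and the higher counts of the serpins of other clades and of the proteases are near those shares. Of the 14 other clade A genes listed, 9 had enough UMIs to test, of which 4 were higher and 1 lower at 24 h, led by Serpina5, the protein C inhibitor (2.14, SE 0.426), Serpina3i (1.99, SE 0.404) and Serpina10, the protein Z-dependent inhibitor (1.01, SE 0.165). At 48 h 1 of the 9 was higher and 4 lower, with Serpina3i at 2.50 (SE 0.344) and Serpina7, thyroxine-binding globulin, at -3.00 (SE 0.46). Of 14 serpins of other clades, 4 were higher and 6 lower at 24 h, with Serpinb1a, an inhibitor of neutrophil proteases, at -2.03 (SE 0.334) and Serpinh1, a collagen chaperone, at 1.33 (SE 0.377). Of 8 testable target proteases, 2 were higher and 4 lower at 24 h, with Prtn3, a neutrophil protease, at 4.35 (SE 0.909) and Klkb1, plasma prekallikrein made by hepatocytes, at -1.71 (SE 0.176). Of 14 secreted liver proteins, 2 were higher and 8 lower at 24 h and 1 and 11 at 48 h, with Apoa2 at -1.44 (SE 0.162) and -1.38 (SE 0.129).

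The sequence before the genes' starts was read for the 7 genes with an entry among RefSeq promoters of GRCm38.p6 (250 bases before to 50 after the start); Serpina3k, Serpina3m and Serpina6 had none. The Serpina1 promoters shared an alignable stretch of 165 bases with 17 differing positions and an unbroken run of 59 identical bases. It is shown for Serpina1d (chr12:103773584-103773748) and Serpina1c (chr12:103904912-103905076), which were lower at all 3 times, and for Serpina1e (chr12:103956910-103957074), which was not called at 24 h. All are on the minus strand, and capitals mark positions at which any of the 5 copies differ.
Serpina1c: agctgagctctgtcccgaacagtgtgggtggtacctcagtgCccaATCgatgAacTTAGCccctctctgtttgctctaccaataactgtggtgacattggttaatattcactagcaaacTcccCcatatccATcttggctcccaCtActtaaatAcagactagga
Serpina1d: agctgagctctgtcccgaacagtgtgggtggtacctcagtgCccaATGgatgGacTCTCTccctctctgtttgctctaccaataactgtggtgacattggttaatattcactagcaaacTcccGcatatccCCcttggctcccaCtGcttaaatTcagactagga
Serpina1e: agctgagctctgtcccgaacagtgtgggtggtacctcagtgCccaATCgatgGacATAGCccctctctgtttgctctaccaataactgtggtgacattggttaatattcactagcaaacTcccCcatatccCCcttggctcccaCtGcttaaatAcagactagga
The letters GTTAAT, the core of the hepatocyte nuclear factor HNF1 motif, occurred on the plus strand in 5 of 5 Serpina1 promoters and, on either strand, in 7.1% of all 32851 promoters. TTGCNNAA, letters of the C/EBP motif, occurred in Serpina1a, Serpina1b, Serpina1d and Serpina1e and in 10.8% of all promoters. The match began at base -161 of Serpina1b, -149 of Serpina1d and -211 of Serpina1e. That of Serpina1a was at another site, after the start, at bases 25 to 32.

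The promoters of Serpina3n (chr12:104406458-104406751, plus strand) and Serpina3c (chr12:104153823-104154119, minus strand) are shown because the genes differed so widely in level. They were identical at 275 of 294 aligned bases (93.5%). Capitals mark the 19 differing positions and the bases opposite a gap.
Serpina3n: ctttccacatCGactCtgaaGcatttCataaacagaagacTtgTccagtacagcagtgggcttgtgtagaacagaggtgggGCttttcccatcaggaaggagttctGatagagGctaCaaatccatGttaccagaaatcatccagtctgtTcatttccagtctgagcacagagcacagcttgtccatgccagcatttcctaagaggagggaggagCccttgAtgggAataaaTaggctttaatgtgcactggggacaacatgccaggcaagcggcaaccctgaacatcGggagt
Serpina3c: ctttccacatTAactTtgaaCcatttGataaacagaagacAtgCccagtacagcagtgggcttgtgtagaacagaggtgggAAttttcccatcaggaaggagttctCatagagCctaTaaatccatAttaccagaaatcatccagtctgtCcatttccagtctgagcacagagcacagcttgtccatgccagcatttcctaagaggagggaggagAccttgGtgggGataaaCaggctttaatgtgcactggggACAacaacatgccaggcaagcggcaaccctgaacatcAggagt
GNACANNNTGTNC, letters of the glucocorticoid receptor motif, occurred in both, at bases -78 to -66 of Serpina3n and -75 to -63 of Serpina3c, and in 0.475% of all promoters. TTCNNNGAA, letters of the STAT motif, occurred in 0 of the 7 and in 8.3% of all promoters. The letters TATAAA occurred in Serpina3c and in 13.6% of all promoters. GTTAAT, the HNF1 letters, also occurred in Serpina3c, on the minus strand at bases -239 to -234, and not in Serpina3n. Both strands were searched, and a match is a run of letters in this window, not a bound site.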

How the data were processed

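Spatial transcriptomes (10x Genomics spatial 3′ gene expression v1) of 11 frozen mouse liver sections were used. Per the labels, the authors ran Space Ranger 1.0.0 on mm10 and Seurat 4.1.1, and the deposited matrices hold raw UMI counts per gene and array spot, with no normalization. Spots were kept under tissue, with at least 800 genes and at most 20% mitochondrial UMIs, the study's filter; 0 to 103 spots were removed per section. Barcodes are those of the array design, so all 4992 are shared by the 11 sections. Counts were summed per section, or per section and spot class, and tested with edgeR 4.0.16 (quasi-likelihood, robust, filterByExpr, TMM; R 4.3.3) over all genes, with Benjamini-Hochberg adjustment and a threshold of 0.05. Zones and classes were set on spots thinned to 2000 UMIs, and classes under 20 spots were left out. Within-section ratios were compared by exact permutation tests. Scripts were tested on simulated data. DESeq2 1.42.0, other scalings and filters, and leaving out each section were alternatives. Coding sequences came from GENCODE (GRCm38), promoters from RefSeq (GRCm38.p6).

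The members and gene lists were chosen with earlier results of these data known. Named genes were all 10 members, at most 4 called genes per list and comparison with the largest changes, and the 5 genes most like each member; of these, some are given, and some items are not reported here. The check of section letters is in the closing section: the letters were not shown to pair sections. Counting error is small for the abundant genes at these depths and is largest for Serpina3c.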

Additional observations from a re-analysis of the deposited data

Results flagged for a closer look

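The difference between portal-rich and portal-poor spots changed after injury for all 9 genes tested, by the interaction test of edgeR. The log2 difference, injured minus 0 h, was 1.274 for Serpina6, 0.672 for Serpina1d, 0.665 for Serpina1c, 0.635 for Serpina1e, 0.565 for Serpina3k, 0.559 for Serpina3n, 0.541 for Serpina1a, 0.531 for Serpina3m and 0.484 for Serpina1b. Of these 9, Serpina6 is the one whose injured and uninjured sections lay on opposite sides of 0 with a call on each; in the central zonation list the difference was called higher for 22 of 23 genes. Serpina3m also lay below 0 in the 3 sections at 0 h and above 0 in the 8 injured ones, without a call at 0 h under TMM scaling (with total-count scaling -0.18, edgeR adjusted p = 0.0308). With hepatocyte-low spots left out, the 9 differences ran from 0.425 for Serpina1b to 1.159 for Serpina6. As said above, that fit cannot tell position in the lobule from the hepatocyte content of a spot.

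Array positions outside the tissue, used in no comparison, had a higher CPM of Serpina3m and Serpina3n, by their own total, after injury than at 0 h. This is a share of UMIs and not an amount, as the median depth of such positions ran from 952 to 10290 UMIs between sections. Serpina3m was at 151 to 205 CPM there at 0 h and at 356 CPM in the lowest injured section (48 h D), and Serpina3n was at 143 to 155 CPM at 0 h and at 335 CPM in the lowest injured section (48 h A). The off-tissue levels of Serpina6 followed those under tissue as well, at 61 to 94.7 CPM at 0 h and 9.83 and 4.46 CPM at 24 h.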

How the results depend on the processing

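Of 1607 refitted fold changes of the 10 genes, 1480 kept their direction and side of the threshold, 54 lost and 33 gained a call, and 40 changed sign. Total-count scaling left 3 genes called at 36 h and 5 at 48 h against 0 h and 1 from 24 h to 36 h. It turned the 24 h values of Serpina1a (0.07), Serpina1b (0.31) and Serpina3k (0.25), Serpina1b at 48 h (0.19), Serpina1d from 24 h to 48 h (0.18) and, from 36 h to 48 h, Serpina1a (0.049), Serpina1c (0.074) and Serpina1d (0.016). DESeq2 called 7 genes from 24 h to 48 h and 1 from 36 h to 48 h; with it and with RLE size factors Serpina1c from 36 h to 48 h was 0.005. With no low-count filter 1 gene was called from 24 h to 36 h, Serpina1d from 24 h to 48 h was 0.017 and Serpina1c from 36 h to 48 h was 0.012. With only the groups compared, 0 genes were called from 24 h to 36 h. Over all genes, total-count scaling called 7506 at 36 h against 0 h (4329 with TMM) and 5249 in ring 1 (3181), DESeq2 called 1224 from 36 h to 48 h (452 by edgeR), the 5th percentile for hepatocyte-low spots called 7507 there (4976), and with only the groups compared 1 was called from 24 h to 36 h (2315) and 0 from 36 h to 48 h. The cause of these changes was not tested.

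Section letters are shared between injured groups, but same-letter sections correlated between -0.24 and 0.29 in their deviations, so they share only a label. With the replicate block 0 genes were called from 24 h to 36 h and 2 from 24 h to 48 h, where Serpina1c was -0.002 and Serpina1d 0.028. Over all genes the block called 82 from 24 h to 36 h (2315 without it), 805 from 24 h to 48 h (5051) and 0 from 36 h to 48 h (452).

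Leaving out each section in turn gave 0 to 2 called genes from 24 h to 36 h, 2 to 7 from 24 h to 48 h, 0 to 1 from 36 h to 48 h and 3 to 8 along the portal axis at 0 h. The log2 ratio differences ran from 1.815 to 2.049 for Serpina3n to Serpina3k, 1.729 to 2.18 for Serpina3m to Serpina3k, -0.126 to 0.306 for Serpina1e to the other copies and -2.442 to -1.887 for Serpina6 to Alb. Fold changes whose sign turned ran, at 24 h, from -0.164 to 0.123 for Serpina1b, -0.109 to 0.415 for Serpina1e and -0.207 to 0.041 for Serpina3k, and at 36 h from -1.111 to 1.9 for Serpina3c. From 24 h to 36 h they ran from -0.123 to 0.182 for Serpina1c, -0.018 to 0.118 for Serpina1d, -0.833 to 0.067 for Serpina3m and -2.546 to 0.429 for Serpina3c. From 24 h to 48 h they ran from -0.136 to 0.169 for Serpina1c and -0.09 to 0.046 for Serpina1d, and from 36 h to 48 h from -0.136 to 0.033 for Serpina1a, -0.069 to 0.034 for Serpina1c and -1.296 to 1.71 for Serpina3c. Depth limits Serpina3c most, with 2 to 17 UMIs per section.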
